A study of Mus musculus with 20 samples.

Results

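The Rag1 and Rag2 locus was examined as a window of mm9 chromosome 2 from 101360000 to 101600000, with bounds given by position. The locus was chosen with earlier results of these data known. All peaks lying wholly inside it were taken from 16 peak lists. The cells were T cells from the thymus of the C57BL/6 strain at the CD4+/CD8+ double-positive (DP) stage, when both coreceptors are present, and the sources used here give no age. The cell type was not checked against marker genes, because peaks could not be assigned to genes. The window held 210 of 270514 peaks. The series had 20 samples, with no treatment or genotype contrast, and 1 list per target. RNA polymerase II (Pol II) was mapped as total enzyme and in its serine 5 (Ser5P) and serine 2 (Ser2P) phosphorylated forms. Of the preinitiation complex, the TFIID subunits TBP and Taf1 and the general factors TFIIA, TFIIB, TFIIE, TFIIF and TFIIH were mapped. Further lists gave the coactivator CBP, the transcription factor ETS1, the histone marks H3K4me3, H3K4me1 and H3K36me3, and FAIRE. FAIRE isolates open chromatin without an antibody, and all other lists came from chromatin immunoprecipitation and sequencing (ChIP-seq). The 4 samples of RNA, input chromatin and control antibody were not analysed here. A single list per target leaves no replicate spread to compare with, so values are descriptions of these lists and no difference was tested.

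Areas are the authors' signal summed over a peak, written in ku, where 1 ku is 1000 units. They are ranked within their own list only, with rank 1 the strongest, because scaling may differ between targets. Depth is unknown for every list.

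Rag1 and Rag2 encode the recombinase that cuts DNA beside V, D and J segments to assemble antigen receptor genes. RAG1 carries the catalytic site, and RAG2 binds H3K4me3 through its PHD finger. Double-positive thymocytes express both genes while they rearrange the T-cell receptor alpha chain, and a distal anti-silencer element on the Rag2 side is known to be required for this expression. In the RefSeq annotation of GRCm38, the order of the protein-coding genes along chromosome 2 was Iftap, Rag2, Rag1, Traf6 and Prr5l. Rag2 lay on the plus strand and Rag1 on the minus strand, so the genes face each other with their start sites at the outer ends. An annotation of mm9 was not used here. Peaks are therefore given by position, and none was assigned to a gene, start site or exon.

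The 250 bases before the RefSeq start of each gene are shown because general factors, CBP and ETS1, the readouts of this series, act at such sequences. They are from GRCm38.p6, at chr2:101624462-101624711 on the plus strand for Rag2 and chr2:101649533-101649782 on the minus strand for Rag1, and are written 5′ to 3′ along the gene. These positions were not compared with the mm9 peaks. Capitals mark matches on either strand to the ETS core GGAA, the RUNX core TGTGGT and the CCAAT box CCAAT.
Rag2: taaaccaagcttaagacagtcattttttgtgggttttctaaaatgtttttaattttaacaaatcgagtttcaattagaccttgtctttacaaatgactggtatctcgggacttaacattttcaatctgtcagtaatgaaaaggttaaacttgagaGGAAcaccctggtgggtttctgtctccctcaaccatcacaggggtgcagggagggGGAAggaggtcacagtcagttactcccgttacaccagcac
Rag1: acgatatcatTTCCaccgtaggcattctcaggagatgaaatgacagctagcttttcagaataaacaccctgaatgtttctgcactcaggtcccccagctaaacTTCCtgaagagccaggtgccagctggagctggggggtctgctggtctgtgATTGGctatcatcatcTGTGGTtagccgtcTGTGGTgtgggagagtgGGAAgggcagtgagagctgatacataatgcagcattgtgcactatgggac

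The Rag1 sequence held 2 RUNX cores, 1 CCAAT box and 3 ETS cores, and the Rag2 sequence held 2 ETS cores and neither of the others. Over 32817 such promoter sequences, at least 1 RUNX core was found in 14.0%, a CCAAT box in 33.8% and an ETS core in 93.4%. The median number of matches was 0 for the RUNX core, 0 for the CCAAT box and 3 for the ETS core. Neither gene had the TATA box TATAAA (12.4% of promoters) or the GC box GGGCGG (32.7%). The E-box CANNTG (66.2%, median 1 match) matched 1 time in Rag2 and 3 times in Rag1, where 1 match overlapped a RUNX core. The MYB core AACNG (74.2%, median 1 match) matched 2 times in Rag2 and not in Rag1. Both sequences had 3 CpG dinucleotides, and 37.8% of promoters had as few. GC content was 41.2% for Rag2 and 50.8% for Rag1, against a median of 52.4%.

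Most peaks of the 13 lists other than histone marks lay in and between 2 broad H3K4me3 domains. This span of 27.7 kb held 79 of 135 peaks, with 39 below it and 17 above. The lists differed in this. The span held 22 of 28 Ser5P, 13 of 20 total Pol II, 10 of 16 TBP and 9 of 14 TFIIE peaks. It held fewer of some others, with 5 of 15 TFIIB, 4 of 9 TFIIH, 1 of 5 Taf1, 5 of 11 CBP and 1 of 7 FAIRE peaks. Of the 210 peaks, 53 were H3K4me1, 12 H3K4me3 and 10 H3K36me3, and 135 belonged to the other 13 lists. The 135 were made up of 28 Ser5P, 20 total Pol II, 16 TBP, 15 TFIIB, 14 TFIIE, 11 CBP, 9 TFIIH, 7 FAIRE, 5 Taf1, 5 Ser2P, 3 TFIIA, 1 TFIIF and 1 ETS1 peak. In 10 kb bins, the fullest were 1 at each domain, with 31 and 40 peaks, and a distal bin with 19, while 10 of 24 bins held none.

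**Figure D1:**
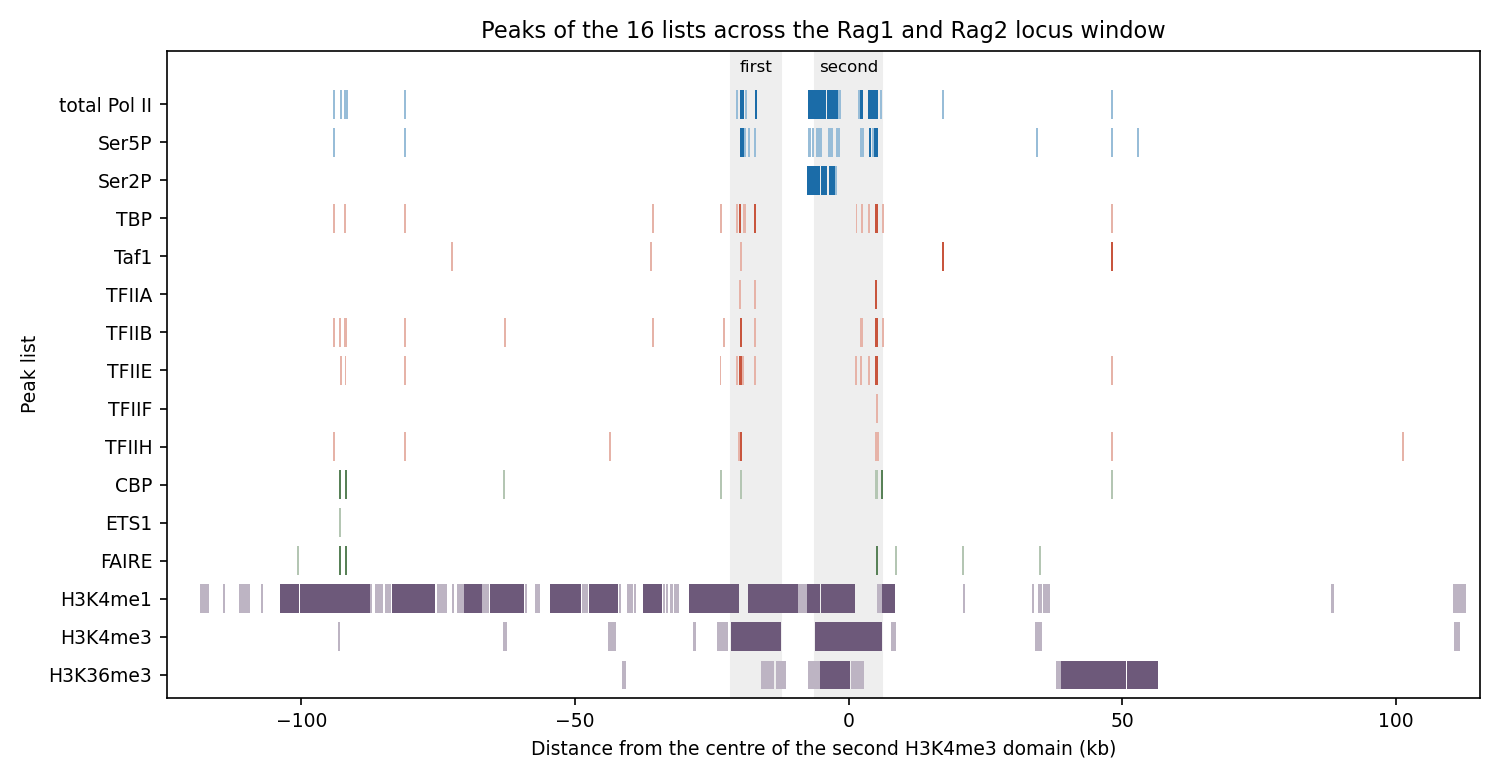
Peaks of the 16 lists (rows) along the window, by distance in kb from the centre of the second broad H3K4me3 domain. Grey bands are the first and second domain; dark boxes are peaks in the upper 10% of their list by area and pale boxes the rest, with narrow peaks drawn wider than to scale. A reader should see the blocks in both domains, a distal group of CBP and FAIRE peaks far to the left, and few peaks to the right.

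Against 11010 windows of the same length over all chromosomes, the locus was most extreme for CBP. Only 2 of these windows had 11 or more CBP peaks. Next came Ser5P, with 28 or more in 11 windows, and TFIIH, with 9 or more in 13. As many TFIIB peaks were found in 45 windows, TFIIE peaks in 52, TBP peaks in 64, Ser2P peaks in 66 and total Pol II peaks in 90. As many Taf1 peaks lay in 2.01% of windows, FAIRE peaks in 2.72%, TFIIA peaks in 3.87% and H3K4me3 peaks in 4.78%. The locus was least unusual for TFIIF, ETS1 and H3K36me3, with as many peaks in 10.1%, 13.9% and 18.4% of windows. For H3K4me1 as many were found in 69 windows. The median window held 0 peaks of each list, except for Taf1 and H3K4me1 with 1. The comparison is thus largely with windows of few or no peaks.

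H3K4me3, the usual mark of active promoters, lay mainly in 2 domains that are called first and second here. The first domain spanned 9.21 kb, from 101463161 to 101472370, and the second 12.4 kb, from 101478431 to 101490830, with 6.06 kb between them. Over all 28013 H3K4me3 peaks only 0.357% were 5 kb or wider. By area the second domain ranked 2 with 10066 ku and the first ranked 39 with 4971 ku. By width they ranked 3 and 15. Their signal per base pair ranked lower, at 621 and 5470. With H3K4me3 peaks merged across gaps of up to 1000 bp, an alternative added after seeing the data, they ranked 21 and 23 by width.

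The 10 remaining H3K4me3 peaks of the window were from 320 to 1490 bp wide and ranked between 4704 and 25038 by area. Together the 2 domains held 72.9% of the H3K4me3-covered length and 88.8% of the area. Of the smaller peaks, those at 101460661 to 101461700 (1040 bp) and 101461761 to 101462510 (750 bp) lay just before the first domain, and that at 101492441 to 101493240 (800 bp) just after the second. A narrow one at 101391391 to 101391730 (340 bp) overlapped part of the distal CBP site described below. Further peaks were found at 101421501 to 101422150, 101440661 to 101442150 and 101456281 to 101456770 on the low side. On the high side they lay at 101518641 to 101519900, 101595221 to 101595540 and 101595561 to 101596470.

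The first domain carried its initiation machinery near its low end. Total Pol II peaked at 101464711 to 101465520 with an area of 209.3 ku, rank 229 of 18037. Ser5P, which marks Pol II early in transcription, peaked at 101464721 to 101465490 with 274 ku, rank 170 of 10644. TBP, which nucleates the preinitiation complex, had 329.9 ku at 101464711 to 101465020 (rank 465 of 15651). TFIIB, the bridge between TBP and Pol II, had 141.6 ku at 101464721 to 101465080 (upper 1.24% of 10999). The centres of these 4 peaks lay 1.70 to 1.95 kb from the low end of the domain.

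Late-assembly factors lay at the same position. TFIIH, which opens promoter DNA and phosphorylates Pol II, peaked at 101464761 to 101465050 with 56.2 ku, rank 98 of 8618 and its strongest peak in the window. TFIIE, which recruits TFIIH, had 61.9 ku at 101464681 to 101465080 (rank 326 of 11678). Taf1, the largest TFIID subunit, and CBP, a histone acetyltransferase, had lower-ranking peaks there, at 29.2% and 15.4% of their lists counted from the top. The Taf1 peak spanned 101464901 to 101465030 and the CBP peak 101464841 to 101464980. TFIIA, which stabilises TBP on DNA, was at 31.2%. No FAIRE, ETS1, TFIIF or Ser2P peak overlapped this domain.

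A smaller cluster lay further into the first domain, at 101467401 to 101467920. It held peaks of 6 lists, total Pol II, Ser5P, TBP, TFIIA, TFIIB and TFIIE. TBP was in the upper 7.88% of its list and total Pol II in the upper 6.84%. The strongest TFIIA peak of the first domain was here (101467401 to 101467600, upper 14.4%). Each of these 6 lists had at least 2 separate peaks within the domain.

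The second domain mirrored the first, with initiation factors at its high end. TBP reached 515.7 ku at 101489521 to 101489980, rank 269, and its centre lay 1.08 kb from the high end. TFIIE had its strongest peak of the window there, with 104.1 ku at 101489461 to 101490020 (rank 87). TFIIB had 138.2 ku at 101489491 to 101489980 (rank 146). Ser5P had 256.9 ku at 101489361 to 101490070 (rank 194). TFIIA had its strongest peak of the window at 101489561 to 101489880, with 41.4 ku (rank 173 of 6588). The 2 strongest TBP peaks of the locus were 24.9 kb apart, centre to centre.

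Other lists split differently between the 2 domains. FAIRE had a peak at the high end of the second domain, at 101489591 to 101489900 (2.21 ku, rank 598 of 11176), and none in the first. The only TFIIF peak of the window, a factor that escorts Pol II to the promoter, lay at 101489821 to 101489890 and ranked 1020 of 1262. TFIIH ranked lower here than in the first domain, with peaks at 101489551 to 101489650 (rank 6797) and 101489891 to 101490050 (rank 3507). No Taf1 peak overlapped the second domain. CBP had 4 peaks in it, at 101489671 to 101489740, 101489821 to 101489880, 101489891 to 101489920 and 101490701 to 101490920, of which the last ranked 323 of 6372.

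**Figure D2:**
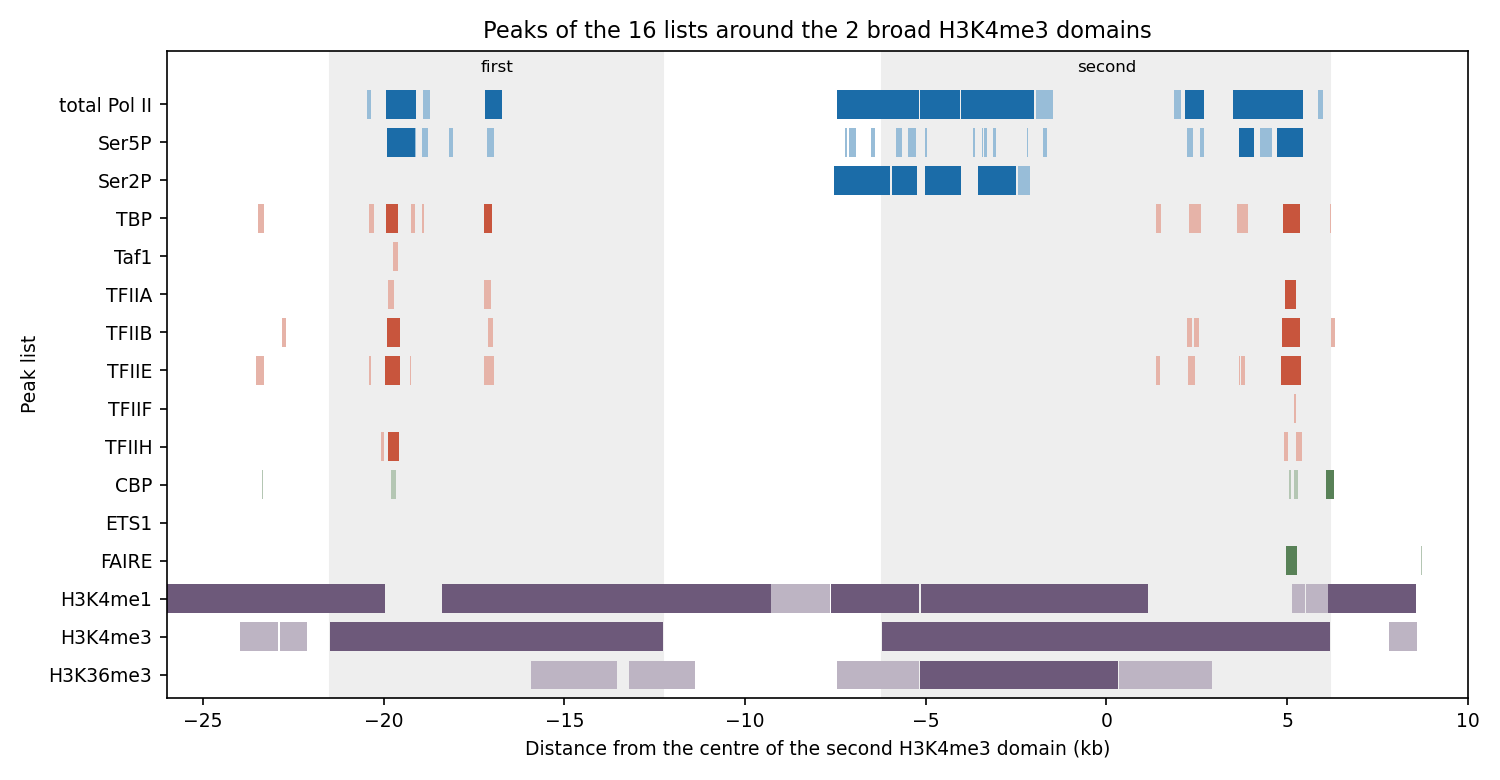
The same peaks around both domains, to scale except for the narrowest, with distance in kb on the horizontal axis, lists as rows and dark boxes for the upper 10% of a list by area. The strongest TBP, TFIIB and TFIIE peaks of each domain lie near its outer end, with further peaks of these lists deeper inside both. The 5 Ser2P peaks lie within a span of 5.43 kb that starts 1.35 kb before the inner end of the second domain.

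At the low end of the second domain, away from these factors, total Pol II formed long blocks that began before the domain. Its strongest peak of the window spanned 2270 bp at 101477171 to 101479440, with 497.4 ku and rank 36 of 18037, and its centre lay just outside the domain. It was followed by peaks of 1110 bp (rank 322), 2020 bp (rank 75) and 480 bp (rank 2349), up to 101483160. At the high end, over the initiation factors, a peak of 1940 bp at 101488121 to 101490060 ranked 54. Per base pair these long peaks were less extreme, and the best of any total Pol II peak in the window was 3.66% from the top, at the low end of the first domain.

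Ser2P, the mark of elongating Pol II, appeared only on this inner side. Its 5 peaks ran from 101477081 to 101482510, starting 1.35 kb before the second domain and ending 7.24 kb short of the centre of its strongest TBP peak. Areas were 248.6 ku at 101477081 to 101478630 (rank 21 of 1811), then 89.5 ku (rank 96), 72.3 ku (rank 141), 113.6 ku (rank 74) and 24.3 ku (rank 637). Per base pair the first of them ranked higher still, in the upper 0.110% of the list. All 5 overlapped H3K4me3 and all 5 overlapped H3K36me3, whereas 14.7% and 53.7% of all Ser2P peaks did. These 5 peaks are neighbours within 5.43 kb and are not independent. The first of them lay mostly before the second domain and met its H3K4me3 only at the high end of the peak.

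Ser5P was spread over the same stretch as many small peaks. From 101477401 to 101482990 there were 12 Ser5P peaks of 30 to 220 bp, ranking from 2875 to 10124. No TBP, TFIIB, TFIIE or TFIIH peak lay there, and the cluster of 6080 bp they formed had only the 3 Pol II lists. Of the 28 Ser5P peaks in the window, 16 (57.1%, exact binomial 95% interval 37.2 to 75.5) overlapped H3K36me3, against 4.29% of all Ser5P peaks. The 12 peaks of this stretch were among the 16. Such neighbours are not independent, so the interval gives counting error only and no difference was tested. A FAIRE peak overlapped 1 of the 28, against 20.5%.

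H3K36me3, a mark of transcribed gene bodies, covered 73.1% of the second domain and 36.2% of the first. The strongest of its 10 peaks spanned 5490 bp at 101479471 to 101484960 and ranked 627 of 49181 by area. Per base pair the same peak ranked 8, in the upper 0.0163%. Between the Pol II blocks and the factors of the high end lay a further cluster of 1320 bp at 101486001 to 101487320, with total Pol II, Ser5P, TBP, TFIIB and TFIIE. Its 2 TBP peaks had areas of 39.3 and 92.0 ku and overlapped H3K36me3.

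**Figure D3:**
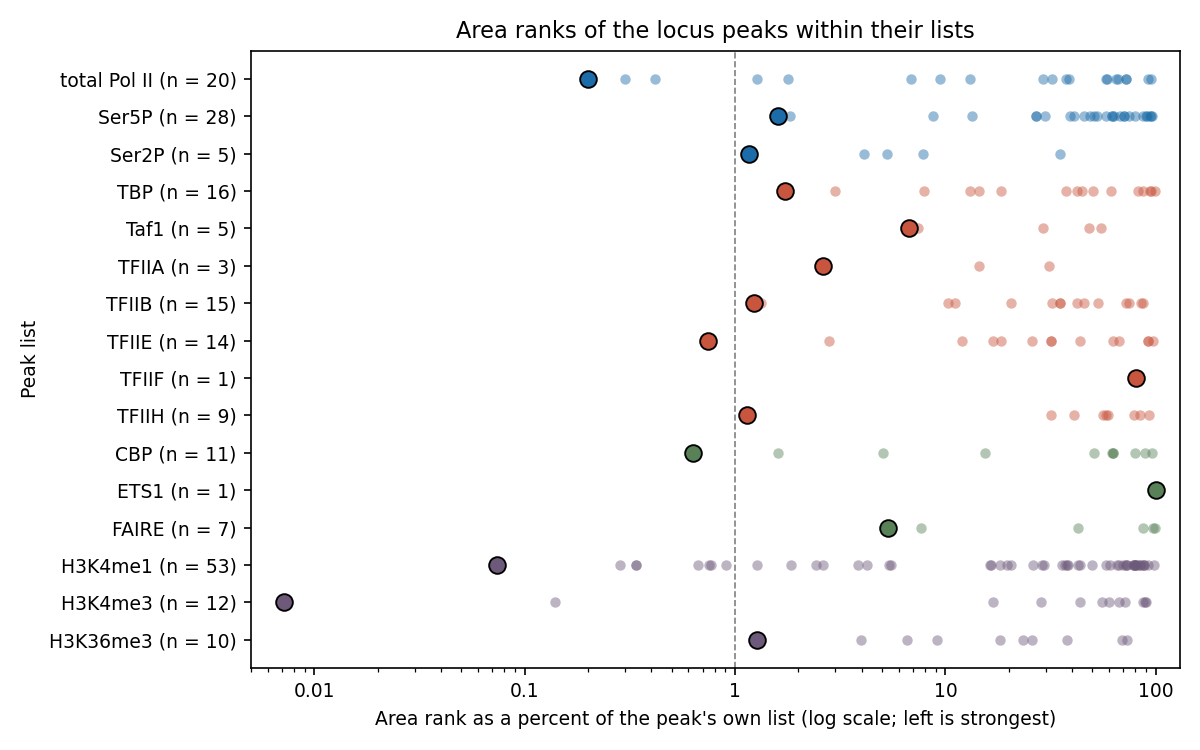
Rank by area of each of the 210 peaks as a percent of its own list (log scale, left is strongest), with lists as rows and the strongest peak of each list outlined. Outlined peaks of H3K4me3, H3K4me1, total Pol II, CBP and TFIIE lie left of the dashed line at 1%. Those of ETS1 and TFIIF, the only peaks of their lists in the window, lie at 99.8% and 80.8%.

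In 5 of 16 lists the strongest locus peak was in the upper 1% by area: H3K4me3, H3K4me1, total Pol II, CBP and TFIIE. Such peaks were 8 of 53 for H3K4me1, 3 of 20 for total Pol II and 2 of 12 for H3K4me3. For CBP they were 1 of 11 and for TFIIE 1 of 14. The best rank of a list also depends on how many peaks it had in the window. Ranked per base pair, 2 lists had a peak in the upper 1%, Ser2P and H3K36me3. The spread within the locus was wide, since 31 of the 135 peaks were in the upper 10% of their list and 61 in the lower 50%. Of the 31, 25 lay between the low end of the first and the high end of the second domain, 4 below them and 2 above.

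The strongest CBP peak of the locus was distal, 73.1 kb from the strongest TBP peak of the first domain, centre to centre. It spanned 101391561 to 101391900 with 90.4 ku, rank 40 of 6372. The cluster around it, 370 bp at 101391551 to 101391920, held peaks of 6 lists, CBP, ETS1, FAIRE, TFIIB, TFIIE and total Pol II. Clusters here are peaks of the 13 lists no more than 500 bp apart, and 1.17% of all 45023 clusters had CBP, ETS1 and FAIRE together. No TBP, Ser5P or TFIIH peak lay in it.

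ETS1, a T-cell transcription factor, had its only peak of the locus at this site. That peak spanned 30 bp at 101391621 to 101391650 and had an area of 1.80 ku, rank 2354 of 2359. It was thus just inside the list, whose lowest area was 1.78 ku. TFIIB ranked higher, at 101391571 to 101391900 with 48.1 ku and rank 1135, and FAIRE had 2.18 ku at 101391551 to 101391810 and rank 615. Total Pol II was weak, with 10.8 ku and rank 11965. The H3K4me3 peak that overlapped the low side of the site ranked 25038 of 28013, in the lower part of its list.

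A second distal site lay next to it at 101392471 to 101392940. CBP spanned 101392541 to 101392860 with 66.0 ku and rank 102, and FAIRE 101392601 to 101392820 with rank 853. This site had H3K4me1 and no H3K4me3, and held 6 lists as well, with TBP (rank 15584 of 15651) in place of ETS1. On its low side a cluster of 190 bp at 101390441 to 101390630 had total Pol II, Ser5P, TBP, TFIIB and TFIIH and no CBP or FAIRE. Total Pol II and TFIIB had peaks in all 3 clusters, and the pair with CBP shared 5 of their 6 lists. The exchange of ETS1 for TBP between that pair rests on peaks near the bottom of both lists.

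The next cluster, at 101403381 to 101403630, was 59.5 kb from the first domain and lacked both CBP and FAIRE. TBP had 75.5 ku there, rank 2883, its highest value outside the domains. TFIIB had 46.3 ku (rank 1225), total Pol II 28.0 ku (rank 5257), Ser5P 21.3 ku (rank 5438), TFIIE 16.1 ku (rank 5069) and TFIIH 15.7 ku (rank 4848). It carried H3K4me1 only. Among all H3K4me1-only clusters, 4.27% had peaks of 6 or more lists, and the locus had 2 of 7.

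Closer to the first domain the distal peaks were sparser. A cluster at 101421561 to 101421860 had CBP at 101421561 to 101421590 and 101421611 to 101421670, with ranks of 5685 and 3980, and TFIIB, under an H3K4me3 peak. Another at 101461111 to 101461930, 1.23 kb before the first domain, had TBP, TFIIB, TFIIE and a CBP peak at 101461261 to 101461300 (rank 5066). An H3K4me1-only cluster at 101448461 to 101448940 (480 bp) held TBP, Taf1 and TFIIB. A smaller one at 101412081 to 101412180 held only Taf1. On the other side of the locus, 14.7 kb above the second domain, an H3K4me1-only cluster at 101505541 to 101505660 held only FAIRE. An H3K4me3 peak of 1490 bp at 101440661 to 101442150 contained just 1 peak of the 13 lists, TFIIH.

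H3K4me1, a mark of enhancers and promoter flanks, was dense on 1 side of the locus, in many separate peaks. It covered 104 kb of the window, 43.4%, and 2 of 11010 windows of equal length had as much. All 11 bins of 10 kb from 101380001 to 101490000 were covered for 5.99 to 9.90 kb, and none of the other 13 for more than 3.15 kb. Below the first domain 72.1% of the sequence was covered, above the second 7.06%. The strongest H3K4me1 peak spanned 9280 bp at 101455381 to 101464660 and ranked 55 of 74607.

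**Figure D4:**
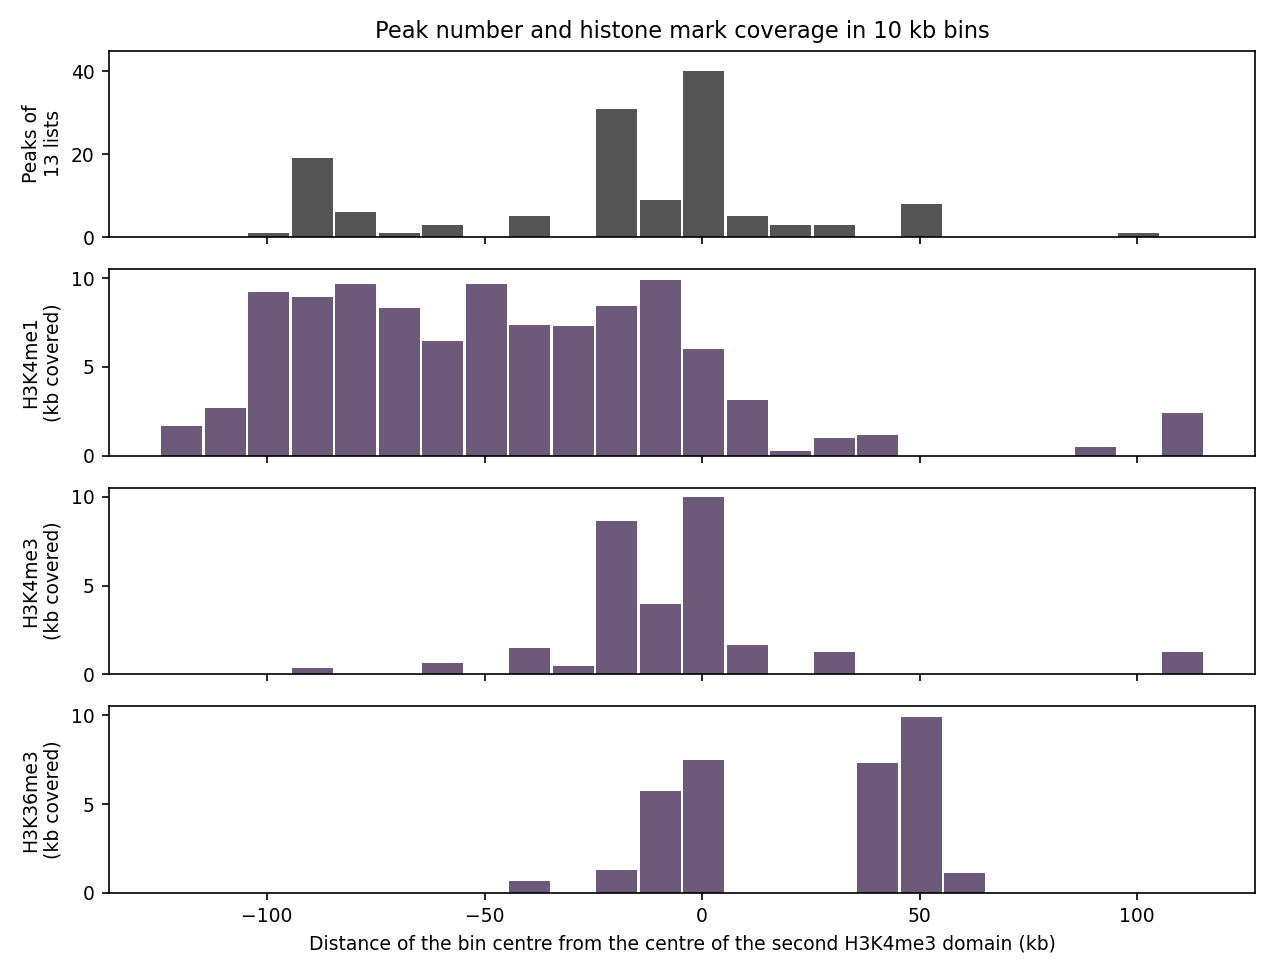
Number of peaks of the 13 lists and kb covered by each histone mark in 24 bins of 10 kb, by distance in kb of the bin centre from the centre of the second domain. H3K4me1 bars stay between 5.99 and 9.90 kb over 11 bins in a row and then drop, while the H3K4me3 and factor bars rise at both domains.

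H3K4me1 had a gap in each domain near initiation factors. A gap of 1.58 kb at 101464661 to 101466240 held the strongest peaks of total Pol II, Ser5P, TBP, TFIIB, TFIIE and TFIIH of the first domain. The gap in the second domain, 4.01 kb at 101485771 to 101489780, contained the cluster at 101486001 to 101487320 and reached into the strongest TBP peak. H3K4me1 still overlapped the strongest TBP, TFIIA, TFIIB and TFIIE peaks of the second domain, and it covered the cluster at 101467401 to 101467920 in the first. The 6.06 kb between the domains were 99.3% covered by H3K4me1 and held no H3K4me3.

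Above the second domain factor peaks were few. At 101501751 to 101501910 lay the strongest Taf1 peak of the locus, with 40.0 ku and rank 909 of 13518, with a weak total Pol II peak (rank 13025) and neither H3K4 mark. At 101532711 to 101532890 a cluster of 180 bp without either H3K4 mark held 7 lists, total Pol II, Ser5P, TBP, Taf1, TFIIE, TFIIH and CBP, and not TFIIB or FAIRE. Of all unmarked clusters 1.29% had 7 or more lists. Its Taf1 peak ranked 1001, and the others lay between 31.6% from the top of their list, for TFIIE and TFIIH, and 62.4%, for CBP at 101532781 to 101532840.

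This cluster lay within a second H3K36me3 stretch, made of 4 peaks from 101522611 to 101541100. The longest measured 7320 bp at 101528081 to 101535400 and ranked 1958. An H3K4me3 peak of 1260 bp at 101518641 to 101519900, rank 4704, lay before this stretch and had 2 Ser5P peaks (ranks 7913 and 9295) and 1 FAIRE peak (rank 10793). No total Pol II, TBP or TFIIB peak overlapped it. The last 2 H3K4me3 peaks, at 101595221 to 101595540 and 101595561 to 101596470, had no peak of the 13 lists.

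In all, the 135 peaks formed 24 clusters. H3K4me3-marked clusters, which overlapped an H3K4me3 peak, numbered 12, against 26.8% of all clusters on all chromosomes. H3K4me1-only clusters numbered 7, against 11.5%, and clusters with neither mark 5, against 61.7%. Peaks of 4 or more lists lay at 10 of the 24, against 19.1% of all, and at 3 of the 7 H3K4me1-only ones, against 12.4%. The richest cluster was that at the high end of the second domain, 101488121 to 101490950, with 10 lists, as 0.422% of all clusters had or exceeded. The cluster at the low end of the first domain, 101464171 to 101465920, had 9, as 1.15% had or exceeded.

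Peak by peak, 92 of 135 overlapped H3K4me3, 68.1% (exact binomial 95% interval 59.6 to 75.9, counting error only), against 49.3% of all peaks of the 13 lists. Of the 135, 39 (28.9%, 21.4 to 37.3) overlapped H3K36me3, against 5.35%. The lists differed among themselves. Total Pol II (65.0% against 64.3%) and TBP (68.8% against 66.3%) were near the share of their own list, and Ser5P (75.0% against 78.7%) and TFIIB (53.3% against 69.7%) were below it. The pooled share therefore also depends on how many peaks each list contributed. Of the 11 CBP peaks, 9 (81.8%, 48.2 to 97.7) lay in H3K4me3 against 29.3% of all CBP peaks, and 5 (45.5%, 16.7 to 76.6) in FAIRE against 20.2%. Peaks of 1 locus share their chromatin and are not independent, and no difference from the whole lists was tested.

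The domains were last set beside the 98 other H3K4me3 peaks of 5 kb or more. The second domain held peaks of 11 of the 13 lists, lacking Taf1 and ETS1, and the first 9. Over all H3K4me3 peaks 0.15% had 11 or more and 1.46% had 9 or more, and among the 98 broad ones 13 had 11 or more and 42 had 9 or more, with a median of 8. Ser5P peaks numbered 14 in the second domain, more than in all but 6 of the 98, where the median was 4. Ser2P peaks numbered 5, which 6 of the 98 reached, and 24 of the 98 had any.

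The second domain was also among the widest, so it had more room for peaks. Ser5P covered 20.9% of it against a median of 11.9%, and 31 of the 98 had as much. CBP peaks numbered 4, which 4 of the 98 reached, but by the share covered 21 of the 98 reached it. By coverage the second domain lay further from the median than the first for total Pol II, H3K36me3, Ser5P, Ser2P and CBP, among others. For TFIIA, TFIIB and TFIIH, among others, the first domain lay further from it. The first domain was above the median for TFIIA (3.80% against 0%) and TFIIH (3.91% against 1.78%). For TFIIB it was below the median (5.54% against 8.34%). Total Pol II covered 59.7% of the second domain, against a median of 22.3% in the 98 and 17.2% in the first domain. H3K36me3 covered 73.1%, a share that 6 of the 98 reached, against a median of 17.3%. TBP had 5 peaks in each domain against a median of 4, and TFIIB had 2 and 3 against a median of 3. TFIIA had 2 peaks in the first domain, as 11 of the 98 did or exceeded.

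**Figure D5:**
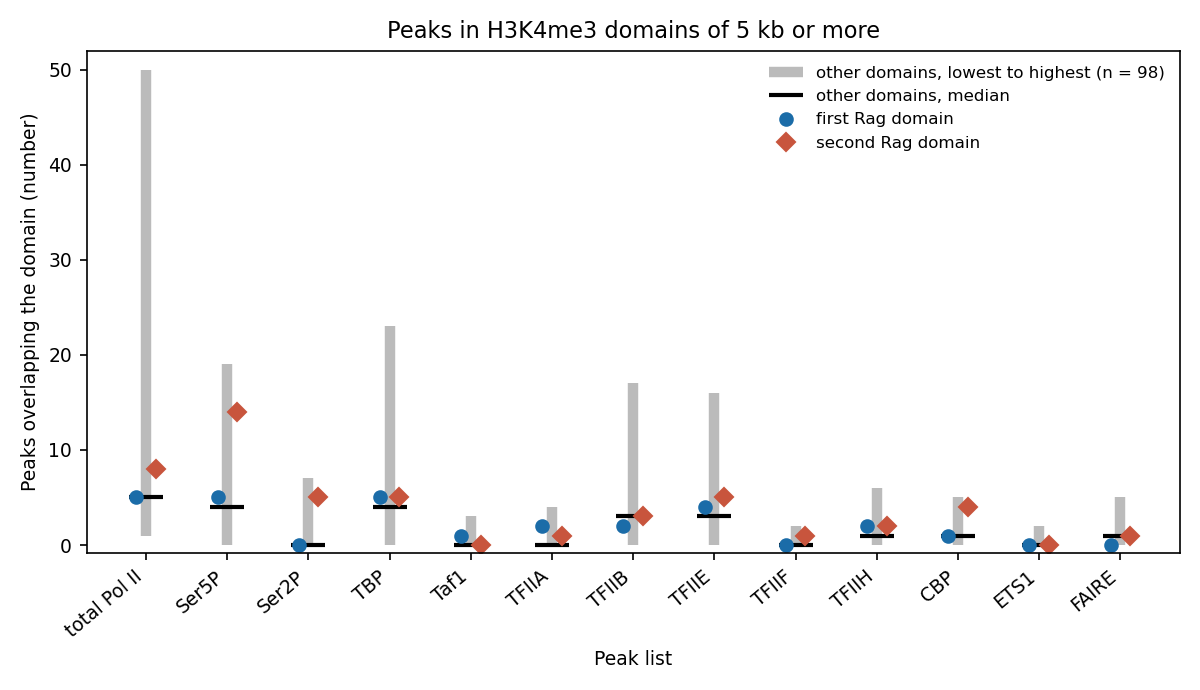
Number of peaks of each of the 13 lists that overlap the first domain (circles) and the second domain (diamonds), beside the lowest, median and highest number in 98 other H3K4me3 peaks of 5 kb or more. The second domain stands at 14 Ser5P, 5 Ser2P and 4 CBP peaks, above medians of 4, 0 and 1, and TBP and TFIIB lie near theirs.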

How the data were processed

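Peak lists were analysed as the authors deposited them. A row held the position of 1 peak and its area, which is the authors' signal summed over the peak, per the names of the deposited files. Per the track names, artefact regions were removed and the signal was scaled and background-subtracted, except for FAIRE, whose track name records none of these steps. By the file names 13 lists came from merged replicates, while those of TFIIB, Taf1 and CBP rested on 1. The build was mm9, per the submitters' processing notes, and peak ends fell on bins of 10 bp. What aligner, peak caller and threshold they used, and the depth, is not given in the sources used here. Scaling and thresholds differ between targets in unknown ways, so areas were compared only within a list, as ranks.

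Overlap meant at least 1 bp. Peaks of the 13 lists other than histone marks were joined into clusters at gaps of 500 bp or less. Equal windows of 240 kb tiled all chromosomes up to the last peak and left out those touching the locus. Regions named were all H3K4me3, CBP and ETS1 peaks, the strongest peak of each list, clusters with 4 or more lists, and the 3 widest other H3K4me1-only clusters. Other peaks are named as examples, after their values were seen. The locus, lists and rules were chosen with earlier results of these data known. Promoter sequences and gene order came from RefSeq (GRCm38.p6), where both genes were found, and the planned list of other recombination genes was not run without an mm9 annotation. The interval code was tested on simulated data. Python 3.11.15, numpy 2.4.6, pandas 2.3.3, scipy 1.17.1 and matplotlib 3.10.9 were used.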

Additional observations from a re-analysis of the deposited data

How the results depend on the processing

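Kept at the upper 50% of each list by area, the locus held 118 in place of 210 peaks and 15 in place of 24 clusters. The kb covered were then 95.1 for H3K4me1, 25.4 for H3K4me3 and 32.0 for H3K36me3, against 104, 29.7 and 33.6. Merging only touching peaks gave 40 clusters. Ranking by area per base pair left 2 in place of 5 lists with a peak in the upper 1%. In 10 of 16 lists it moved the best rank by more than 1.5 times. Over the 16 lists the best rank was weaker per base pair in 11 and stronger in 5. Area is summed over a peak, and why the ranks moved was not tested. The largest number of lists at a cluster was 8 to 10 under all 5 alternatives, with 8 when the CBP, Taf1 and TFIIB lists were left out. The share of peaks in H3K4me3 was 64.4% to 71.1% under its 3 alternatives. Depth is unknown for every list, so a missing peak, such as ETS1 in either domain, says only that none passed the authors' threshold. No paired analysis was possible because each target had a single list and no test was made.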
